A study of Mus musculus with 11 samples.

Results

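A set of 8 genes that mark DPP4-positive progenitors of the adipose stroma, Dpp4, Pi16, Cd55, Ccn3, Cd248, Postn, Efhd1 and Dmkn, were followed through single cells of mouse perigonadal white adipose tissue (pgWAT). They are 8 of 23507 gene rows in the count table. They were chosen because their reads were higher on a plate of DPP4-sorted cells (plate 709) than on its DPP4-negative partner (plate 875), and because they were detected in the same cells as Dpp4. Both patterns are therefore given below as descriptions without a test.

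The cells came from the stromal vascular fraction, the non-adipocyte cells freed from fat by digestion, of adult Pdgfrb-eGFP transgenic mice on a C57BL6/J background, which carry green fluorescent protein as a reporter of the mural and mesenchymal gene Pdgfrb. All groups shared this reporter, and the labels name no treatment. Libraries were made by Smart-seq2, which copies whole transcripts of 1 sorted cell per well without molecular identifiers, and 3261 cells on 11 plates were deposited with 141935 to 3526227 gene reads per cell (median 616939). Plates 172 (mouse 1), 131 (mouse 4) and 344 (mouse 8) held male cells, and plates 129 (mouse 3), 843 (mouse 5), 42 and 43 (mouse 6/7, 1 label for 2 animals) held female cells. Plates 172, 131, 129 and 843 were sorted as PDGFRB-positive, plate 42 as CD31-negative and PDGFRB-positive, and plates 344 and 43 were mixtures with CD31-positive cells. Plates 709 and 875 came from female mouse 2, sorted as PDGFRB-positive and DPP4-positive or DPP4-negative. Plates 171 (male) and 874 (female) were sorted as CD31-positive and held 2 and 0 cells of the kind studied here.

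A cell was taken as an adipose stem cell when Pdgfra, the receptor that marks adipose stromal progenitors, reached 20 CPM (reads of a gene scaled to a library of 1000000 gene reads), which 2128 of 3261 cells did. These cells carried the stromal markers Col1a1, Dcn and Lum at 20 CPM or more in at least 98.4% of the 1400 cells from mice without a DPP4 sort. The endothelial gene Cdh5 reached that level in 0.357% of them and Pecam1 in 16.9%, at summed levels of 0.382 and 6.87 CPM. Cells with Pecam1, Ptprc, Rgs5 or Krt18 at 20 CPM or more were most frequent in mouse 3. Without them, 103 of 306 cells of mouse 3 and 128 of 153 of mouse 8 remained. In mice 1, 4, 5 and 6/7, 199 of 200, 350 of 354, 90 of 91 and 288 of 296 remained. Cells just below the Pdgfra threshold, at 10 to 20 CPM, numbered 56 and had Dpp4 at 20 CPM or more in 21.4%, against 27.3% of the 77 cells at 20 to 40 CPM and 30.5% of the 2049 cells above 40 CPM, plate 171 aside. No cell name and no set of counts occurred more than once. The study set aside clusters rich in mitochondrial transcripts as damaged or stressed, including a fibroblast-like cluster from female mice 5 and 6/7 only. Here no cell was left out on mitochondrial reads, and the part of such cells in the results was not tested. The column names of plate 709 carry a tag that resembles the one used for PDGFRB-negative cells, whereas its sample label says PDGFRB-positive. In its 365 Pdgfra-positive cells Pdgfrb was at 187 CPM and reached 20 CPM in 93.97%, against 263 CPM and 97.5% on plate 875.

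DPP4-positive progenitors lie in the connective sheets between fat lobules and around organs, away from capillaries. They are regarded as an early stage of the adipogenic lineage that divides readily, builds extracellular matrix and gives rise to committed preadipocytes. DPP4 itself is a membrane peptidase that removes dipeptides from the amino end of chemokines and hormones, so it serves both as a sorting handle and as an enzyme.

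Of the 8 genes, 3 encode proteins of the cell surface. Dpp4 (ENSMUSG00000035000, chr2:62330073-62412231, minus strand, mm10) encodes the peptidase. Cd55 (ENSMUSG00000026399, chr1:130439027-130462744, minus strand) encodes decay-accelerating factor, which protects cells from complement. Cd55b, a closely similar copy, is annotated beside it at chr1:130388537-130423009, so reads of Cd55 may be shared with it and its level is uncertain to that extent. Cd248 (ENSMUSG00000056481, chr19:5068078-5070682, plus strand) encodes endosialin, a transmembrane glycoprotein of stromal cells and pericytes.

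Another 4 encode proteins that are secreted or held at the membrane. Pi16 (ENSMUSG00000024011, chr17:29317680-29330593, plus strand) encodes peptidase inhibitor 16. Ccn3 (ENSMUSG00000037362, chr15:54745702-54754039, plus strand) and Postn (ENSMUSG00000027750, chr3:54361109-54391037, plus strand) encode matricellular proteins, which sit in the matrix and signal to cells. Dmkn (ENSMUSG00000060962, chr7:30763756-30781063, plus strand) encodes dermokine, best known from the epidermis. Efhd1 (ENSMUSG00000026255, chr1:87264363-87310839, plus strand) encodes a calcium-binding mitochondrial protein. A non-coding gene, Efhd1os, lies on the opposite strand at chr1:87264481-87265174 and shares 254 of its 332 exon bases with Efhd1. Whether counting used strand is not stated, so reads of this stretch cannot be told apart.

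The promoters of Dpp4, Cd55 and Efhd1 are shown because Efhd1 was the gene that varied most closely with Dpp4 from cell to cell and Cd55, like Dpp4, encodes a surface protein. Each is the 250 bases before the RefSeq start in GRCm38.p6, 5′ to 3′ on the gene's strand, at chr2:62412232-62412481 (minus), chr1:130462745-130462994 (minus) and chr1:87264103-87264352 (plus). Capitals mark matches on either strand to 6 motifs that were searched, namely the TATA box TATAAA, the CCAAT box, the GC box GGGCGG, the AP-1 site TGACTCA, the E-box CACGTG and the TEAD site GGAATG.
Dpp4: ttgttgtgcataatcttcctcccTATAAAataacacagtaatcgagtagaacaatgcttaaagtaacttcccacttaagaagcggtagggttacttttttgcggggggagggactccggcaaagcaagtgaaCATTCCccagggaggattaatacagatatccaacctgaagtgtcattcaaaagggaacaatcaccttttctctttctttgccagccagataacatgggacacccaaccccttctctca
Cd55: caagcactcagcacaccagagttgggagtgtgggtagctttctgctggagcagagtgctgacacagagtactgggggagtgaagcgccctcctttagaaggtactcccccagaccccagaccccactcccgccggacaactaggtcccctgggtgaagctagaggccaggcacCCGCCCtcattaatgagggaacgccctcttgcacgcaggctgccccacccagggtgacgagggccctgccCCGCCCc
Efhd1: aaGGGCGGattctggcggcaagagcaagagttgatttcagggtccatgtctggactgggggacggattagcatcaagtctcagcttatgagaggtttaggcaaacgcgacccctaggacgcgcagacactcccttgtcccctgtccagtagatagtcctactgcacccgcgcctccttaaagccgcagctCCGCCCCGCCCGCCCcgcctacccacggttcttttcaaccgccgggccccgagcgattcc
The Dpp4 promoter had a GC content of 43.6%, below the median of 52.4% over 32851 promoters of that length, and Cd55 and Efhd1 were above it at 64.0% and 60.8%. Dpp4 held TATAAA, 227 bases before the start, and GGAATG on the opposite strand at 118. TATAAA was present in 12.4% of all promoters and GGAATG in 12.6%. Cd55 held GGGCGG on the opposite strand at 77 and 7 bases, and Efhd1 held it on its own strand at 248 and on the opposite strand at 60, 55 and 51. The Efhd1 matches at 60, 55 and 51 overlap one another in 1 GC-rich run. GGGCGG occurred in 32.7% of all promoters, and CCAAT (33.8%), TGACTCA (4.46%) and CACGTG (6.02%) matched none of the 3 sequences shown. Entries for 6 of the 8 genes were found, Ccn3 and Cd248 being the others.

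All 8 genes were higher on the DPP4-positive plate than on the DPP4-negative plate of mouse 2, which is the contrast that chose them. The reads of the Pdgfra-positive cells of a plate were summed for this, and in such sums fewer expressing cells and less RNA per cell cannot be told apart. Dpp4 was at 174 CPM in 365 cells on plate 709 and at 1.75 CPM in 361 cells on plate 875, a ratio of 99.5. Pi16 was at 1276 against 131 CPM, a ratio of 9.75. Efhd1 was at 177 against 24.0 CPM, a ratio of 7.36. The surface proteins Cd55 (537 against 180 CPM) and Cd248 (3567 against 1230 CPM) had the smallest ratios, 2.99 and 2.90, and the DPP4-negative plate expressed them too. The matricellular genes lay between, Ccn3 at 39.9 against 6.53 CPM and Postn at 860 against 237 CPM, with ratios of 6.11 and 3.63. Dmkn was at 24.4 against 0.0916 CPM, but only 26 reads were counted on plate 875 and 10 cells held 68.0% of the reads of plate 709. All 8 exceeded a ratio of 2.6 toward plate 709, as did 4.33% of 17163 genes with at least 100 reads on either plate. With 1 plate per sort there is no replicate of this contrast.

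The share of cells that had each gene separated the plates less sharply than the sums for some genes. Dpp4 reached 20 CPM in 69.3% of cells on plate 709 and in 1.94% on plate 875, where 10 cells held 98.8% of its reads. Cd248 reached it in 100% and 98.9% of cells and Cd55 in 87.4% and 75.9%, so both were present in most cells of either sort. Pi16 (84.7% against 36.6%), Postn (84.4% against 43.2%) and Efhd1 (68.0% against 19.7%) were in between. Ccn3 (25.8% against 5.26%) and Dmkn (10.1% against 0.277%) were found in a minority of cells even after the DPP4-positive sort.

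**Figure D1:**
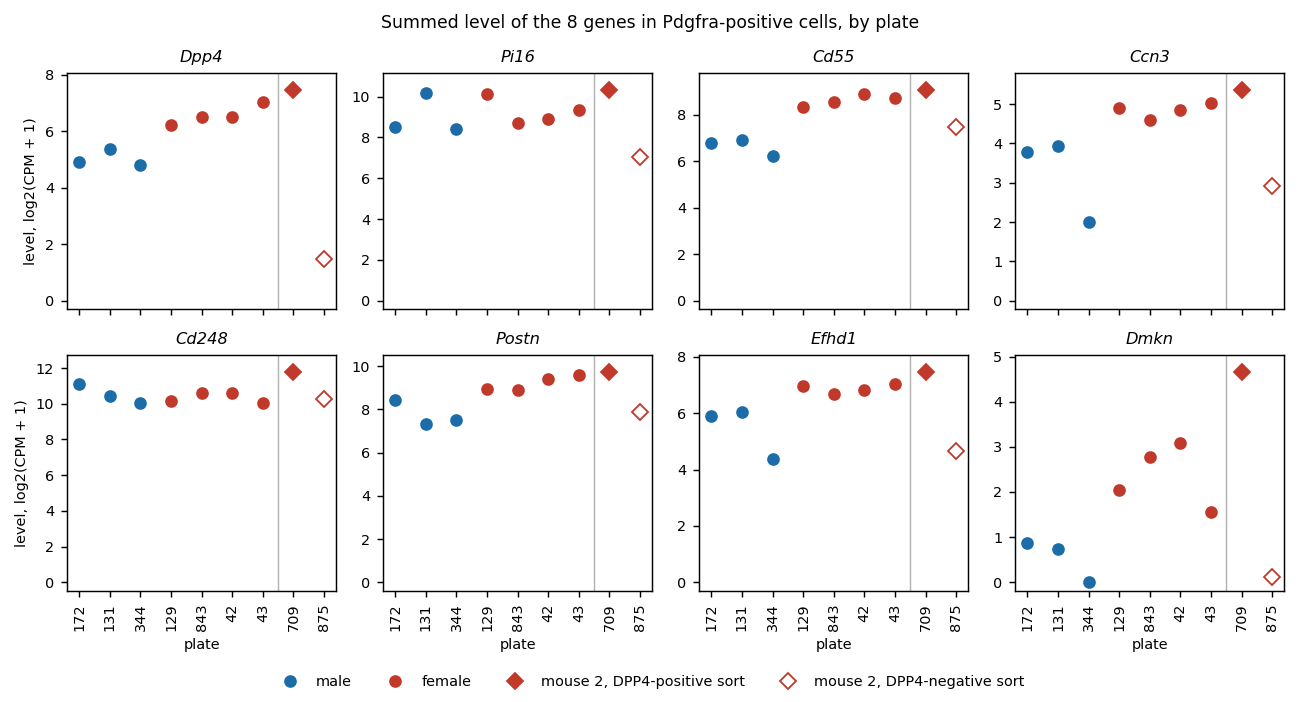
Level of each gene, as log2(CPM + 1) of the summed reads of Pdgfra-positive cells, on each plate (blue, male; red, female; diamonds, the plates of mouse 2, filled for the DPP4-positive sort). Plate 709 has the highest point in each panel and plate 875 the lowest for Dpp4 and Pi16, and Cd248 is high on every plate. Dpp4, Cd55, Ccn3, Postn, Efhd1 and Dmkn are lower on the male plates than on the female plates without a DPP4 sort. The share of all genes with that pattern was not counted on this scale.

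Without a DPP4 sort, each gene was found in every mouse, at levels that spanned a wide range between genes. Per kilobase of exon, Cd248 was the most abundant, at a median of 555 CPM per kb over 6 mice (399 to 836). Pi16 followed at 71.9 (54.0 to 181), then Postn at 47.9 (18.2 to 78.9), Cd55 at 45.5 (15.4 to 95.7) and Efhd1 at 39.3 (9.23 to 57.9). Dpp4 was sixth, at 8.98 CPM per kb (4.28 to 15.1), Ccn3 was at 6.52 (1.05 to 10.1) and Dmkn at 0.897 (0.00349 to 3.04). Each gene exceeded the next in this order in 6 of 6 mice, except Postn over Cd55 (2 of 6) and Cd55 over Efhd1 (4 of 6), whose order was not stable between mice. Mouse 8 was the lowest mouse for 7 of the 8 genes and mouse 4 for Postn.

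In single cells, the other genes were more often detected where Dpp4 was. Pdgfra-positive cells were divided into Dpp4-high cells, with Dpp4 at 20 CPM or more, and Dpp4-low cells, on the 4 plain PDGFRB-positive plates and on plates 42 and 344. Plate 43, with 49 Pdgfra-positive cells, was not included here. Efhd1 reached 20 CPM in 55.2 to 83.3% of Dpp4-high cells and in 4.03 to 35.8% of Dpp4-low cells, a median difference of 49.3 percentage points. Pi16 did so in 80.0 to 100% against 34.7 to 96.1% (median difference 44.7), Postn in 64.4 to 95.8% against 41.1 to 61.2% (35.6) and Cd55 in 72.4 to 100% against 36.7 to 80.6% (29.5). Cd248 was in nearly every cell of both kinds, with a median difference of 2.38 points. Ccn3 differed by 15.9 points and Dmkn by 3.60, both from low shares. The Dpp4-high cells had the higher median number of gene reads per cell on 5 of the 6 plates, most of all on plate 344 with 929221 against 693629, and plate 131 had 504826 against 523720. With every cell thinned to 100000 reads and 1 read counted as detection of Dpp4 and of the other gene, a lower cut at equal depth, the median differences were smaller for Efhd1 (34.3 points), Cd55 (17.3), Postn (17.3) and Pi16 (16.6), from 49.3, 29.5, 35.6 and 44.7 above. Ccn3 differed by 18.5 points, Dmkn by 3.15 and Cd248 by 0.543.

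On plate 131 the share of cells with Pi16 hardly distinguished the 2 kinds of cell, the difference being 2.55 points. All 354 cells of this plate had Pi16 reads, with a lowest value of 8.16 CPM and a 5th percentile of 24.9 CPM. A read of Dpp4 was found in 76.8% of them, and 20.6% reached 20 CPM of it. At a cut of 200 CPM, which was chosen after seeing the data, Pi16 was in 79.5% of the Dpp4-high and 41.6% of the Dpp4-low cells of this plate. At that cut the shares on the other plates without a DPP4 sort were 65.5 to 87.5% and 13.4 to 38.8%.

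**Figure D2:**
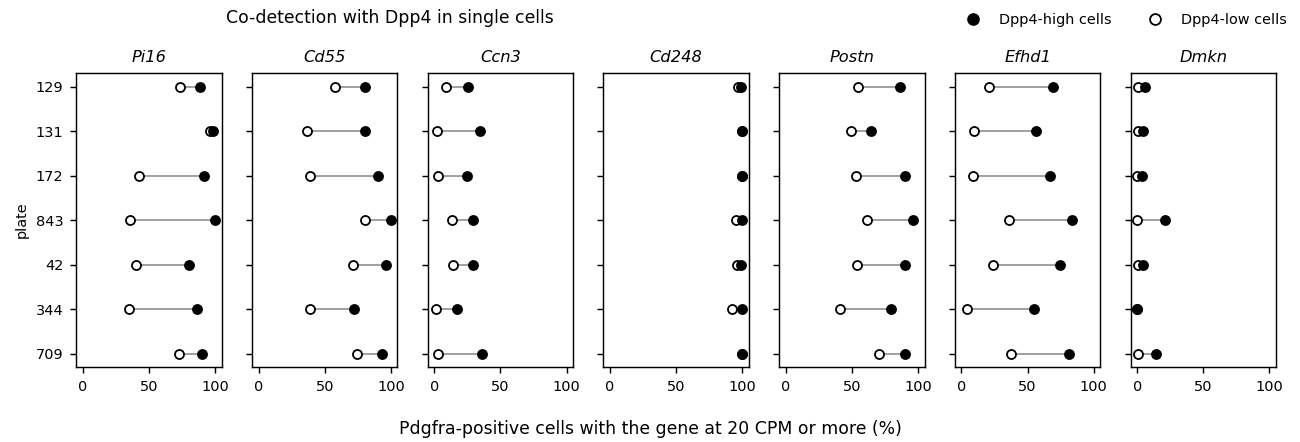
Percent of Pdgfra-positive cells with each of the other 7 genes at 20 CPM or more, in Dpp4-high (filled) and Dpp4-low (open) cells of each plate, with plate 709 at the bottom. The distance between the points has the largest median over the 6 plates shown above plate 709 for Efhd1, at 49.3 points, and is near 0 for Cd248 and, on plate 131, small for Pi16.

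Levels varied together across cells as well. Of the 28 pairs among the 8 genes, 27 had a Pearson correlation of log2(CPM + 1) above 0 on all 6 plates, over 1351 cells. The cells of a plate share library preparation, but their depth differs, and the counts were not thinned for these correlations. Dpp4 with Efhd1 had the highest mean correlation, 0.54 (0.45 to 0.66 over plates), followed by Dpp4 with Pi16 (0.51) and Pi16 with Efhd1 (0.49). Postn and Dmkn were the loosest, with a mean of 0.08 between them, and Cd248 with Dmkn was the pair whose correlation fell below 0 on any of these plates. On the sorted plates of mouse 2, all 28 pairs were above 0 in DPP4-positive cells (median 0.42), whereas in DPP4-negative cells 24 were above 0 and the values ran from -0.03 to 0.29 (median 0.08). Pi16 with Efhd1 was at -0.03 there, and Dpp4 reached 20 CPM in 7 of those 361 cells.

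Cells that had most of the genes at once were frequent after the DPP4-positive sort. At least 6 of the 8 genes reached 20 CPM in 53.2% of cells on plate 709 (194 cells) and in 1.39% on plate 875 (5 cells). The plates without a DPP4 sort ranged from 7.84% on plate 344 to 30.6% on plate 43. All 8 were found together in 26 cells of plate 709 and in 0 of 361 cells of plate 875. Both counts, of at least 6 and of all 8, include Dpp4 itself. Dpp4 reached 20 CPM in 7 of the 361 cells, so the sort largely fixed the 0 in advance. Even the DPP4-negative cells had a median of 3 of the genes, against 6 on plate 709.

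**Figure D3:**
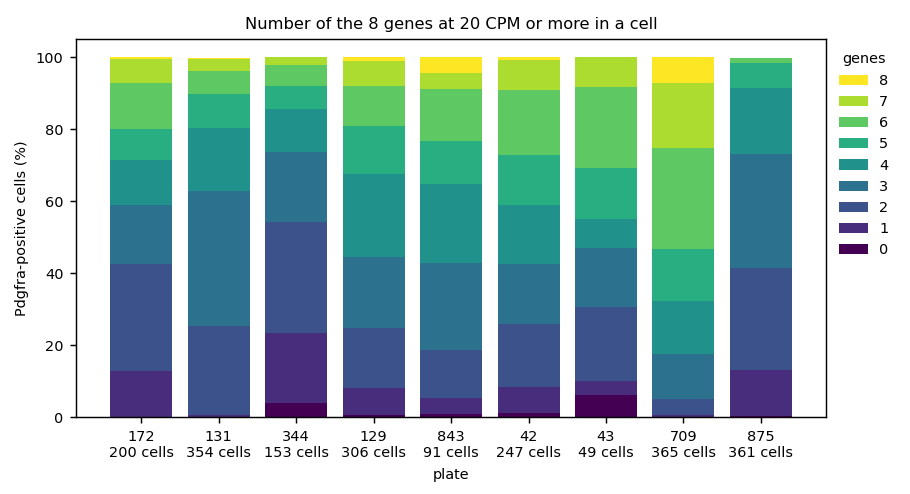
Percent of Pdgfra-positive cells on each plate that had 0 to 8 of the genes at 20 CPM or more (colours from dark for 0 to yellow for 8). Plate 709 has the largest part with 6 or more, 53.2%, and plate 875 the smallest, 1.39%.

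When summed over the cells of a mouse, the 8 genes were higher in Dpp4-high than in Dpp4-low cells in 6 of 6 mice, except Dmkn in 5. This division uses Dpp4 itself and the co-detection by which the genes were chosen, so the values are given without a test. Pi16 was at 1483 ± 541 CPM in Dpp4-high and 284 ± 219 CPM in Dpp4-low cells (mean ± SD, n = 6 mice, scaled by the trimmed mean of M-values, TMM). Efhd1 was at 200 ± 52.0 against 25.6 ± 15.8 CPM, and in each mouse its Dpp4-high value, 130 to 244 CPM, was above every Dpp4-low value, 4.25 to 42.4 CPM. The share of all genes separated in this way was not counted. Cd55 was at 477 ± 203 against 115 ± 65.1 CPM and Ccn3 at 37.0 ± 16.3 against 8.89 ± 7.09 CPM. Cd248 was at 3058 ± 1858 against 1012 ± 460 CPM and Postn at 660 ± 304 against 253 ± 85.4 CPM. Dmkn was at 6.02 ± 7.28 against 1.00 ± 1.92 CPM, with errors as large as its means.

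Genes outside the 8 that followed them most closely were ranked by their correlation with the mean standardised level of the 8 genes, averaged over the 6 plates, among 9502 genes with reads in at least 20% of 1351 cells. The highest were Efhd1os (0.67, the antisense neighbour that shares exon bases with Efhd1), the semaphorin Sema3c (0.64), the microfibril gene Fbn1 (0.64) and fibronectin, Fn1 (0.62). Uchl1 (0.59), Limch1 (0.58), the microfibril-associated Mfap5 (0.58), Anxa3 (0.57), the chemokine scavenger receptor Ackr3 (0.57) and Fstl1 (0.56) came next. The median of all ranked genes was 0.05 and the 99th percentile 0.37. Of the 8 genes, 7 were ranked themselves, each by its correlation with the mean of the other 7, and Dmkn was detected in too few cells. The values of these 7 lay between 0.64 for Efhd1 and 0.41 for Postn. At the other end were Steap4 (-0.53), apolipoprotein Apoe (-0.49), Crispld2 (-0.46), Sparcl1 (-0.45) and the basement membrane collagen Col15a1 (-0.45), which were named after their values were seen.

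Other genes of the progenitor state were tested between the Dpp4-high and Dpp4-low cells of the 6 mice, with the mouse as a block, by edgeR's quasi-likelihood test. A gene was called at a Benjamini-Hochberg adjusted p below 0.05 and a fold above 2.6. Of 14497 genes tested, 115 were called higher in Dpp4-high cells (0.793%) and 187 lower (1.29%). Of 20 other progenitor genes, which include genes the study picked from these cells and so are no independent evidence of their direction, 13 rose and none fell, with a median log2 fold change of 2.19 against -0.07 over all genes. Dact2, a regulator of Wnt signalling, was at 30.9 ± 25.7 against 1.17 ± 1.01 CPM (log2 fold change 5.11 ± 0.53 SE, adjusted p = 0.00264 by edgeR). Bmp7, a bone morphogenetic protein, was at 64.1 ± 71.4 against 2.36 ± 2.43 CPM (4.17 ± 0.74, adjusted p = 0.0200 by edgeR), and Limch1, an actomyosin regulator, at 33.2 ± 9.15 against 2.93 ± 2.20 CPM (3.87 ± 0.55, adjusted p = 0.00763 by edgeR). The Dpp4-high values of Bmp7 were 68.3, 130 and 169 CPM in male mice 1, 4 and 8. They were 7.82, 7.98 and 1.992 CPM in female mice 3, 5 and 6/7, and mouse 6/7 had 1.835 CPM in its Dpp4-low cells.

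Matrix genes moved only in part. Of 21 elastic fibre and microfibril genes, 5 were called higher and none lower, with a median log2 fold change of 0.37. By adjusted p alone, without the fold threshold, edgeR had 8 higher and 2 lower, the latter Emilin1 (-0.98) and the collagen crosslinking enzyme Lox (-0.96), named after their values were seen. Fbn1, which forms microfibrils, was at 5832, 1444, 3779, 1204, 3027 and 1035 CPM in the Dpp4-high cells of mice 1, 4, 8, 3, 5 and 6/7, and at 1130, 391, 862, 363, 774 and 451 CPM in their Dpp4-low cells. It was higher in every mouse, although the mice themselves differed so much that the 2 sets overlap (log2 fold change 1.88 ± 0.14 SE, adjusted p = 0.00125 by edgeR). Pcolce2, an enhancer of procollagen processing (1.59 ± 0.18), and Fn1 (1.58 ± 0.17) had the next largest folds among the called genes of this list, with adjusted p-values of 0.00348 and 0.00264 by edgeR.

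In the lists of preadipocyte, adipogenic and F3-positive cell genes, those that were called were lower. Of 10 preadipocyte genes, those of the cells named ASC1a in the study, 4 fell and none rose (median -1.06), and this list too draws on the study's own cells. Apoe was at 33.7, 119, 8.46, 387, 76.9 and 263 CPM in the Dpp4-high cells of mice 1, 4, 8, 3, 5 and 6/7 and at 855, 704, 261, 1450, 898 and 1046 CPM in their Dpp4-low cells. All 6 mice were lower, by a log2 fold change of -3.24 ± 0.46 SE (adjusted p = 0.00763 by edgeR), and Cxcl14 (-2.47 ± 0.23) and Col15a1 (-1.89 ± 0.18) fell as well (both adjusted p = 0.00201 by edgeR). Of 11 adipogenic genes, 2 fell and none rose past the fold threshold (median -0.91), while by adjusted p alone edgeR had 3 lower and 1 higher. The 2 called were the fatty acid binding protein Fabp4, at 5.93 ± 4.61 against 42.5 ± 29.7 CPM (adjusted p = 0.0178 by edgeR), and the fatty acid transporter Cd36, at 3.39 ± 2.26 against 22.1 ± 16.8 CPM (adjusted p = 0.0248 by edgeR). Ebf2 of this list, named after its values were seen, went the other way. It was at 112, 185, 158, 142, 83.8 and 123 CPM in the Dpp4-high cells of mice 1, 4, 8, 3, 5 and 6/7. In their Dpp4-low cells Ebf2 was at 38.4, 104, 79.1, 84.0, 41.7 and 74.4 CPM. Of 11 genes of F3-positive cells, named ASC1b in the study and also drawn from it, 2 fell, Clec11a (-1.76 ± 0.39, adjusted p = 0.0428 by edgeR) and Gdf10 (-1.47 ± 0.21, adjusted p = 0.00764 by edgeR), and none rose (median -1.31).

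Among relatives and partners of the 8 genes, the calls went the other way. Of 11 genes for other members of the DPP4 family, binding partners and substrates of the enzyme, 3 fell and none rose (median -0.23). The chemokine Cxcl12, a DPP4 substrate, was at 83.3, 122, 53.3, 291, 149 and 257 CPM in the Dpp4-high cells of mice 1, 4, 8, 3, 5 and 6/7 and at 266, 356, 148, 629, 547 and 475 CPM in their Dpp4-low cells. It was lower in 6 of 6 mice (log2 fold change -1.43 ± 0.14 SE, adjusted p = 0.00228 by edgeR). The caveolin gene Cav1 (-1.60 ± 0.32, adjusted p = 0.0323 by edgeR) and Igf1 (-1.77 ± 0.31, adjusted p = 0.0182 by edgeR) also fell. Ackr3, the scavenger receptor for CXCL12 and one of the progenitor genes above, was instead at 917 ± 180 against 315 ± 100 CPM (1.58 ± 0.17, adjusted p = 0.00264 by edgeR). On the sorted plates of mouse 2, Cxcl12 was at 246 CPM in DPP4-positive and 808 CPM in DPP4-negative cells, and Ackr3 at 723 and 275 CPM.

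Of 13 relatives of the 8 genes in the same protein families, 4 fell and none rose (median -1.07). Ccn5 (-2.99 ± 0.68, adjusted p = 0.0478 by edgeR) and Ccn4 (-2.86 ± 0.63, adjusted p = 0.0425 by edgeR), which belong with Ccn3 to the CCN matricellular proteins, were 2 of them. Cd59a, which like Cd55 restrains complement, was the other with a large fold (-2.60 ± 0.48, adjusted p = 0.0227 by edgeR), at only 2.38 ± 0.82 CPM in Dpp4-low cells. Ccn4 was low as well, at 0.027 to 6.53 CPM in Dpp4-high and 0.693 to 11.5 CPM in Dpp4-low cells, with both highest values in mouse 1. Ccn5 was at 0.035 to 31.7 against 6.58 to 111 CPM.

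**Figure D4:**
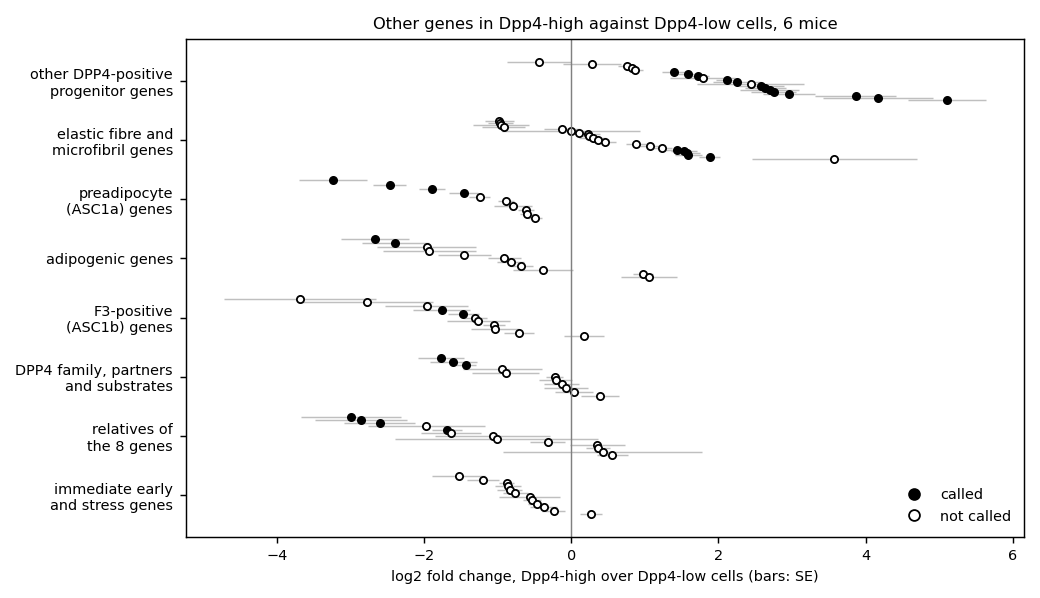
Log2 fold change of each tested gene of 8 lists between Dpp4-high and Dpp4-low cells (points; bars, standard error; filled, called at adjusted p below 0.05 and fold above 2.6; n = 6 mice). Called genes of the progenitor and elastic fibre lists lie to the right of 0 and those of the preadipocyte, adipogenic, F3-positive, DPP4 partner and relative lists to the left.

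Traces of other cell types moved with the same division. The summed level of 7 mural markers was 2.36 to 24.7 CPM in Dpp4-high and 17.1 to 154 CPM in Dpp4-low cells, lower in the Dpp4-high cells of all 6 mice. Acta2, the smooth muscle actin, was the mural marker of 6 tested that passed, at 7.28 ± 8.26 against 40.2 ± 25.9 CPM (-3.06 ± 0.61, adjusted p = 0.0297 by edgeR). The sums of 4 endothelial (2.50 to 21.4 against 5.05 to 20.5 CPM), 5 macrophage (2.49 to 4.53 against 1.91 to 7.95 CPM), 8 mesothelial and epithelial (0 to 4.14 against 0.0488 to 23.6 CPM) and 5 adipocyte markers (0.250 to 8.86 against 0.315 to 49.1 CPM) are given for the whole lists. Of these markers 3, 2, 1 and 2 had enough reads for the test, and none was called. The adipocyte sum was higher in the Dpp4-high cells of 1 of 6 mice. Of 12 immediate early and stress genes, which respond to tissue digestion, none was called, with a median log2 fold change of -0.66, and 6 had an adjusted p below 0.05 by edgeR with a smaller fold, all lower in Dpp4-high cells. The part of these differences in the results above was not tested. Without the mouse as a block, 68 genes were called in place of 302. A division by Pi16 at 20 CPM in place of Dpp4 called 15, but in mouse 4 it set 342 cells against 12.

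Sex, which the choice of the genes did not use, was compared over the Pdgfra-positive cells of 3 male and 3 female mice. The share of cells with Dpp4 at 20 CPM or more was 30.0, 20.6 and 19.0% in male mice 1, 4 and 8, and 28.4, 26.4 and 38.2% in female mice 3, 5 and 6/7. The sexes overlap. The means were 23.2 ± 5.96% in males and 31.0 ± 6.30% in females (SD, n = 3 each), and the difference of 7.80 points was within the spread between mice (exact permutation test, two-sided, p = 0.3, where 3 against 3 mice cannot go below 0.1). After thinning every cell to 100000 reads and counting cells with at least 1 Dpp4 read, the difference was 9.34 points (exact permutation test, p = 0.2). The shares were then 33.0, 38.7 and 24.2% in males 1, 4 and 8, and 40.85, 34.1 and 49.0% in females 3, 5 and 6/7.

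In the summed reads of these mice, none of the 7 genes with enough reads was called by sex, Dmkn being below the count filter. Over all genes, 156 of 10858 were called (1.44%), 106 higher in males and 50 higher in females. Dpp4 was at 45.4, 32.1 and 43.4 CPM in males 1, 4 and 8 and at 52.9, 88.1 and 69.8 CPM in females 3, 5 and 6/7 (log2 male over female -0.80 ± 0.31 SE, adjusted p = 0.267 by edgeR). Cd55 was at 173, 97.9 and 120 CPM in the males and at 230, 369 and 339 CPM in the females (-1.26 ± 0.35, adjusted p = 0.133 by edgeR). Ccn3 was at 20.2, 11.5 and 4.85 CPM against 20.8, 22.6 and 20.6 CPM (-0.81 ± 0.46, adjusted p = 0.435 by edgeR). In these 3 of 7 genes every TMM-scaled female value was above every male value, for Ccn3 by a narrow margin. Of all genes, 10.7% showed that pattern.

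On the TMM scale the remaining genes overlapped between the sexes. Efhd1 was at 92.5, 52.7 and 31.5 CPM in males and 88.3, 99.1 and 83.5 CPM in females (-0.62 ± 0.39), and Postn at 551, 127 and 289 against 356, 472 and 501 CPM (-0.46 ± 0.49). Pi16 was at 562, 928 and 551 against 796, 400 and 369 CPM (0.38 ± 0.42), and Cd248 at 3425, 1118 and 1668 against 818, 1512 and 1099 CPM (0.86 ± 0.49). These 4 had adjusted p-values of 0.433 to 0.688 by edgeR. Which genes overlapped depended on the scaling. In CPM without TMM factors, Efhd1 was at 58.8, 65.4 and 19.6 CPM in males 1, 4 and 8. It was at 123, 102 and 114 CPM in females 3, 5 and 6/7, without overlap. Postn was at 350, 158 and 180 against 495, 484 and 686 CPM, also without overlap. The share of all genes separated on that scale was not counted. Scaling by library totals alone lowered the median of all genes from 0.02 to -0.59 on the log2 scale and turned Pi16 to -0.13, and under it 33.3% of 318 called genes were higher in males in place of 67.9%.

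Cd55 and Ccn3 were lower in males among Dpp4-low cells. This division of the sex comparison was added after seeing the data. In Dpp4-low cells alone, Cd55 had a log2 male over female of -1.65 (adjusted p = 0.027 by edgeR) and Ccn3 of -2.27 (adjusted p = 0.045 by edgeR), and both were called, beside 143 of 10040 genes (1.42%). In Dpp4-high cells alone the values were -0.84 for Cd55 (adjusted p = 0.454 by edgeR) and 0.015 for Ccn3 (adjusted p = 0.993 by edgeR), neither of them among the 21 of 6944 genes called there (0.302%). The difference between these sex effects was itself tested, and edgeR called none of 14497 genes, although 5.72% of them had an unadjusted p below 0.05. Cd55 had a difference of 0.88 ± 0.25 and Ccn3 of 2.10 ± 0.69, with unadjusted p-values of 0.00872 and 0.0159 and adjusted p-values of 0.826 and 0.863 by edgeR. Efhd1 (1.81 ± 0.41, adjusted p = 0.769 by edgeR) and Postn (-0.89 ± 0.20, adjusted p = 0.769 by edgeR) did not pass either. A sex effect that differs between Dpp4-high and Dpp4-low cells was thus not shown for any of them.

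Among the other lists, 2 of 20 progenitor genes were called higher in males, and none lower, Bmp7 and Sema3e, which like the genes of the next sentence were named after their values were seen. Gdf10 of 11 F3-positive genes and the relative Ccn5 were called higher in males, and Clec14a, another of 11 relatives, was called lower. No gene of the elastic fibre (20 tested), preadipocyte (10), adipogenic (11), DPP4 partner (11) or immediate early lists (12) was called. The summed mural markers were at 14.6 to 110 CPM in males and 17.7 to 51.3 CPM in females, adipocyte markers at 1.68 to 36.7 against 0.294 to 9.68 CPM, and endothelial, macrophage, and mesothelial and epithelial sums were at most 20.1 CPM in either sex. Immediate early and stress genes summed to 8039 to 20090 CPM in males and 7095 to 13730 CPM in females. Their part in the sex values was not tested, and mouse, plate and sort cannot be told apart where a mouse has 1 plate.

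Outside the stem cells, the genes were compared with endothelial cells of the same animals, gated on Pecam1 and Cdh5 without Pdgfra. In mice 1, 8, 5 and 6/7, which had at least 10 such cells, 9.25% of 14636 genes were called higher in Pdgfra-positive cells. Only Cd55, Postn and Efhd1 had at least 100 reads in 2 or more of the endothelial sums, a minimum set after the values were seen, so the test is given for these 3. The other 5 genes entered the fit through the Pdgfra-positive sums in which they are high, and their levels are given without a test.

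Dpp4 was at 39.8, 40.3, 80.4 and 62.7 CPM in the Pdgfra-positive cells of these mice and at 0.0879, 0, 0.0735 and 0.131 CPM in their endothelial cells, where 7, 0, 2 and 10 reads were counted. The values do not overlap. No endothelial cell of 571 in all mice reached 20 CPM of Dpp4, which allows a share of up to 0.525% by the limit of 3 counts, and 14 cells had any read of it. Pi16 was at 331 to 512 CPM in Pdgfra-positive and 0.477 to 2.34 CPM in endothelial cells, and Ccn3 at 4.50 to 20.6 against 0 to 0.0735 CPM. Cd248 was at 987 to 3001 against 0.866 to 28.2 CPM, and Dmkn at 0.0114 to 5.16 against 0 to 0.0708 CPM. For Pi16, Ccn3 and Cd248 every Pdgfra-positive value was above every endothelial one, whereas Dmkn overlapped. For these genes and Dpp4, the share of all genes with the same separation was not counted.

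Cd55 was lower but present in endothelial cells, at 13.2, 7.93, 7.68 and 13.9 CPM against 152, 111, 336 and 305 CPM in Pdgfra-positive cells (log2 difference 4.30 ± 0.42 SE, adjusted p = 0.00120 by edgeR). Efhd1 was at 81.0, 29.2, 90.4 and 74.95 CPM in Pdgfra-positive cells and at 9.34, 0.142, 5.95 and 16.0 CPM in endothelial cells (3.82 ± 0.83, adjusted p = 0.0243 by edgeR). Both were higher in the Pdgfra-positive cells of all 4 mice.

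The call of Postn against endothelial cells was lost when mouse 8, 5 or 6/7 was left out. With 1 mouse left out its log2 difference was 5.807 to 7.905. Postn was at 482, 268, 431 and 450 CPM in the Pdgfra-positive cells of mice 1, 8, 5 and 6/7 and at 151, 1.06, 3.67 and 1.02 CPM in their endothelial cells (6.80 ± 1.47, adjusted p = 0.0242 by edgeR). Its adjusted p was 0.0761, 0.0899 and 0.0867 without mouse 8, 5 or 6/7, and 0.163 without the mouse as a block. That of Efhd1 was 0.0741 and 0.0874 without mouse 1 or 5. The endothelial gate also held transcripts of other cell types. Among adipocyte markers, Car3 was at 1051 CPM and reached 20 CPM in 74.6% of these cells, Adipoq was at 207 CPM in 36.4% and Cidec at 170 CPM in 32.6%. Among mural markers, Rgs5 was at 120 CPM and reached 20 CPM in 20.5%. Postn was at 445 CPM in 77 mural-gated cells, 61 of them from mouse 1. The part of these transcripts in the endothelial values was not tested.

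**Figure D5:**
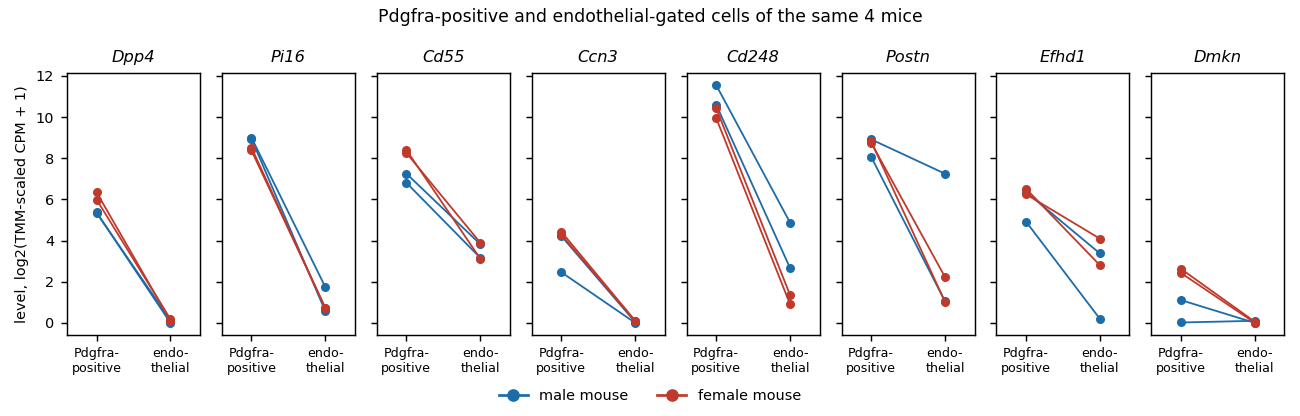
Level of each gene as log2(TMM-scaled CPM + 1) in Pdgfra-positive and endothelial-gated cells, with a line for each of 4 mice (blue, male; red, female). All lines fall except that of 1 male mouse for Dmkn, and the Postn line of mouse 1 stays high at 151 CPM.

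In the remaining gates, which had too few mice for a test, Dpp4 was at 5.63 CPM in the mural-gated cells and at 24.5 CPM in 19 keratin-gated cells, which carried Krt8 and Krt18 and of which 18 came from mouse 1. It reached 20 CPM in 5 of these 19 cells. Cd248 was at 169 CPM in mural-gated cells, and reached 20 CPM in 39 of 77. Dmkn was at 8.16 CPM in the keratin-gated cells, with all of its reads in 1 cell.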

How the data were processed

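Single cells of pgWAT stromal vascular fraction were sequenced by Smart-seq2 on multiwell plates. Per the labels and the study's methods, the authors processed reads with bcl2fastq, STAR and Salmon against mm10 and summed transcripts to genes with tximport. Tool versions and strand setting are not given in the sources used here. The deposited values are raw read counts per gene and cell, all whole numbers. Rows for ERCC spike-ins, 1.98% of reads, were left out of totals and tests.

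Samples were grouped by mouse and sort from their labels. Gates were set at 20 CPM of gene reads, and 0 cells fell under the thinning depth of 100000 reads. Counts were summed per mouse, and per gate within a mouse, with at least 10 cells per sum. Both sums of a mouse come from the same animal, so the mouse was a block in the within-mouse comparisons. The p-values measure the spread between mice. Tests used edgeR's quasi-likelihood test with TMM factors and Benjamini-Hochberg adjustment (edgeR 4.0.16 in R 4.3.3), on genes with over 600 counts in at least 2 sums for sex and at least 100 in at least 2 sums otherwise. Calls needed an adjusted p below 0.05 and a fold above 2.6. Shares by sex used an exact permutation test (scipy 1.17.1 in Python 3.11.15). Intervals and limits cover counting error only, since reads have no molecular identifiers. The fits were tested on simulated data.

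The 8 genes and the gene lists were chosen with earlier results of these data known. Named genes are the 8, up to 3 called genes per list and direction with the largest fold in the Dpp4-high against Dpp4-low comparison, and the 10 genes most correlated with the 8. Alternatives were other scaling (RLE size factors, library totals), count filters, edgeR's likelihood ratio test, DESeq2 1.42.0, other gates, no block, mouse 2 included, and each mouse left out. The sex comparison within Dpp4-high or Dpp4-low cells, its difference between them and the 200 CPM cut for Pi16 were chosen after seeing the data. Promoters are RefSeq entries for GRCm38.p6. The entry of Pi16 lies within an exon of a longer transcript and is not shown.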

Additional observations from a re-analysis of the deposited data

Results flagged for a closer look

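In 6 of 32 groups of 4 or 6 mice, 1 mouse stood apart from the rest by Dixon's criterion at the 95% level, where chance alone flags about 5% of groups. In endothelial-gated cells, Postn was at 151 CPM in mouse 1, with the next mouse at 3.67 CPM. Cd248 was at 28.2 CPM in the same cells of mouse 1, with the next at 5.31 CPM. Pi16 was at 2.34 CPM in the endothelial-gated cells of mouse 8, with the next at 0.656 CPM, low beside the 331 to 512 CPM of Pdgfra-positive cells. Among Dpp4-high cells, mouse 5 had Dpp4 at 314 CPM, with the next mouse at 196 CPM, and Dmkn at 20.3 CPM, with the next at 5.78 CPM. Among Dpp4-low cells, mouse 6/7 had Dmkn at 4.87 CPM, with the next at 0.864 CPM.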

How the results depend on the processing

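Between Dpp4-high and Dpp4-low cells, the 302 calls became 755 by edgeR's likelihood ratio test, 858 by DESeq2, 119 when cells were divided by 1 Dpp4 read after thinning and 15 when divided by Pi16. Without the mouse as a block there were 68 calls, and 18 of the 20 named genes lost theirs. Leaving out 1 mouse gave 125 to 257 calls, fewest without mouse 1 (11 of 20 named genes lost), with 191, 193 and 196 without mice 4, 3 and 5. The division by Pi16 at 20 CPM was uneven, with 342 Pi16-high and 12 Pi16-low cells in mouse 4. Under it, Ccn5 (1.38), Cd59a (0.45) and Clec11a (0.64) turned to higher and 16 named genes lost their call. By sex, the 156 calls became 318 with library totals alone, 459 by the likelihood ratio test, 536 by DESeq2, 275 with mouse 2 included and 21 in Dpp4-high cells alone. Leaving out 1 mouse gave 69 to 164, with 88, 101, 69 and 87 without mice 4, 8, 5 and 6/7. Pi16 turned to -0.13 with library totals alone and Ccn3 to 0.015 in Dpp4-high cells alone. Against endothelial cells, the 2366 calls in both directions became 4041 by DESeq2, 2360 without the replicate block, and 1343 to 2028 with 1 mouse left out (1504 without mouse 1, 1343 without mouse 6/7). Tests with fewer mice have fewer degrees of freedom, and for the other changes the cause was not tested. The difference in the share of Dpp4-positive cells between the sexes was 4.21 to 11.2 points with 1 mouse left out. Of 931 recomputed values of single genes, lists and directions, 700 kept their direction, size and side of the threshold, 119 moved in size, 100 lost and 7 gained a call, and 5 turned. Dmkn had few reads, and 3 mice per sex limit the sex comparison.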
